A study of Mus musculus with 24 samples.

Results

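The Hox genes of the mouse lie in 4 clusters, HoxA to HoxD, and this account follows all of them over 24 microarrays of sorted mammary cells. A member was any gene whose symbol is Hox followed by a, b, c or d and a number, measured by at least 1 probe set (a group of short array probes read as one value) that carries that symbol alone. The array held 48 such probe sets for 33 of the 39 Hox genes of the RefSeq gene table, among 18193 genes in all. The remaining genes of the clusters were not analysed here. Where a gene had several probe sets, its brightest probe set on average over the 24 arrays was used. The rule uses no difference between groups.

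The study set tumours against normal glands in cells sorted by surface markers. The tumours were 5 independent mammary adenocarcinomas, A to E, of C57BL6/J mice with the genotype Apc+/1572T, in which the Wnt antagonist gene Apc carries 1 truncated allele in every cell. The normal tissue came as 3 independently isolated pools of glands, F to H, of Apc+/+ mice of the same strain, so that a normal value averages over several animals and a tumour value does not. From each tumour or pool 10000 cells were sorted into each of 3 populations, Lin- (cells without lineage markers), Lin-CD29+CD24+ and Lin-CD29hiCD24+, the last being the gate that the study calls stem cells. This gave 5 tumour and 3 normal arrays for each population. The labels give no ages for the mice.

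Hox genes encode homeodomain transcription factors that give cells their position along the body axis during development. Within a cluster the genes stand in the order in which they act along that axis, and genes of the same number in different clusters, the paralogues, descend from 1 ancestral gene. The proteins bind DNA together with TALE cofactors of the Pbx, Meis and Pknox families. Polycomb complexes keep the clusters silent outside their domains, MLL (trithorax) complexes keep them active within them, and retinoic acid, Cdx factors and Wnt signals help to open them in the embryo. In the mammary gland Hox genes are known for roles in placement and growth of the gland.

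The deposited values are log2 signals. A value was called above the low band when it passed 2.83, the 40th percentile of all values on the arrays, and a gene was tested when at least 3 of 24 arrays passed that limit. The markers separated the normal gates: the 15 basal genes averaged 12.5 to 12.8 in normal CD29hiCD24+ arrays and 4.42 to 4.74 in normal CD29+CD24+ arrays, where the luminal genes averaged 12.0 to 12.1. In tumours the same basal mean lay between 9.0 and 10.9 in all 3 gates, and the mean of 14 squamous keratinisation genes lay between 8.54 and 12.5, against 4.43 to 5.95 in normal arrays. The normal CD29hiCD24+ array of pool F stood apart, as the means of 3 marker lists show. Its leukocyte genes averaged 7.86, where pool G had 3.06 and pool H 3.13. Its endothelial genes averaged 9.40 (6.68 in G, 7.58 in H) and its luminal genes 7.28 (9.57 in G, 9.81 in H). In sorted bulk samples fewer cells of a type and less RNA per cell cannot be told apart.

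Most Hox genes gave no signal above the low band. Only 12 of the 33 members (36.4%) could be tested, against 74.05% of all 18193 genes. These were Hoxa3, Hoxa4, Hoxa5 and Hoxa10 in HoxA, Hoxb2, Hoxb3 and Hoxb4 in HoxB, Hoxc6 and Hoxc8 in HoxC, and Hoxd1, Hoxd8 and Hoxd9 in HoxD. In 5 members, Hoxa3, Hoxa5, Hoxb3, Hoxb4 and Hoxd8, all 24 arrays were above the limit on the probe set used. The other probe sets of Hoxa3 and Hoxb4 passed it in 0 arrays. That of Hoxa5 passed in 1, the normal CD29hiCD24+ array of pool F at 3.24. In 17 of 33 members no array was above the limit, against 21.3% of all genes. These 17 were spread over the clusters, 4 of 9 in HoxA, 6 of 9 in HoxB, 4 of 7 in HoxC and 3 of 8 in HoxD. One of them, Hoxc5, had another probe set that passed the limit in 1 array, at 6.03 in CD29hiCD24+ cells of tumour E. On the probe sets used, their full range over 24 arrays was 0.093 to 0.295 log2 units, with a median of 0.179.

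By paralogue number, the measurable members were mostly anterior and central ones. Of the anterior members, numbers 1 to 4, 6 of 10 could be tested. Of the central members, numbers 5 to 8, 4 of 9 could. Of the posterior members, numbers 9 to 13, which pattern the hind end of the body, the limbs and the urogenital tract, 2 of 14 could, and these were Hoxa10 and Hoxd9. The counts are descriptions, and a low probe set value can also come from the probes, so the same limit does not mean the same RNA level in 2 genes. Of the genes that flank the clusters, counted as up to 6 protein-coding genes on either side in RefSeq order, 45 had a probe set and 37 of these could be tested.

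**Figure D1:**
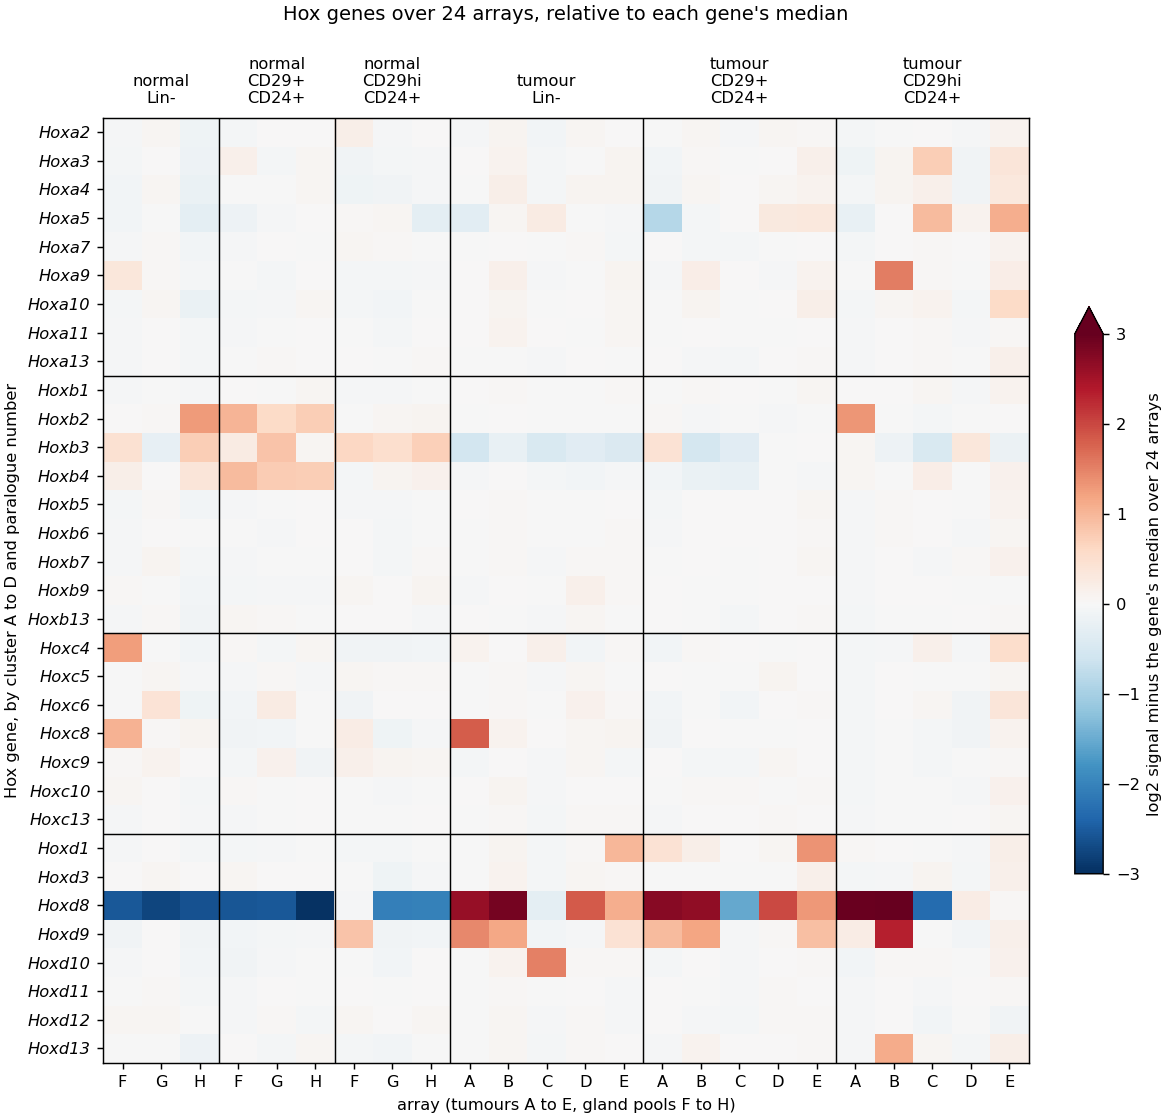
Each row is 1 of 33 Hox genes and each column 1 of 24 arrays, with the colour giving the log2 signal minus that gene's median over the arrays (red higher, blue lower). Hoxd8 is the one row with strong contrast across groups, from 3.49 in a normal array to 9.45 in a tumour array, and most other rows are nearly white.

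The sequences just before the starts of the genes that the comparisons turn on are shown first, for Hoxd8, its neighbour and the HoxB gene with the firmest call. Each run is the 250 bases before the RefSeq start, on the plus strand of GRCm38.p6, with capitals marking matches on either strand to 4 short motifs. These were the TATA box TATAAA, the core CTTTGAT that TCF/LEF factors of the Wnt pathway bind, the Pbx-Hox site TGATTNAT, and AGGTCA, the half-site of retinoid and other nuclear receptors. The windows are those of Hoxd8 at chr2:74704365-74704614, Hoxd9 at chr2:74697513-74697762, and Hoxb4 at chr11:96318017-96318266.
Hoxd8: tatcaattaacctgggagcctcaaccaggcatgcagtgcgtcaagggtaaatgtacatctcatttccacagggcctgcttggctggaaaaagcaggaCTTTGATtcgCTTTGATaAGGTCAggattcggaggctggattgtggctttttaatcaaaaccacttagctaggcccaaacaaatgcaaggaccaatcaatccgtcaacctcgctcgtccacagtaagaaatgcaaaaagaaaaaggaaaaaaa
Hoxd9: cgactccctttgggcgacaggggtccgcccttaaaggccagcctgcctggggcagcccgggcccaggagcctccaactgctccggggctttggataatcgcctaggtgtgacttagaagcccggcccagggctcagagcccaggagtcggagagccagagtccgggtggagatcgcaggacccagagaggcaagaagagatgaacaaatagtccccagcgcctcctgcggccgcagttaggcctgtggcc
Hoxb4: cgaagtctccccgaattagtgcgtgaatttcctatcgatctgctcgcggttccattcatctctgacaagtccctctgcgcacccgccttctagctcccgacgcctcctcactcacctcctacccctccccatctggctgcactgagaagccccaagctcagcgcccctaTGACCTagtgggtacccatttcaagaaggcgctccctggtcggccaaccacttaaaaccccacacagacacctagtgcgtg

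The Hoxd8 window held the TCF/LEF core at 2 places, starting 153 and 143 bases before the start, and the half-site AGGTCA 135 bases before it, so that the 3 matches lie side by side. None of these matches overlaps another. It was 44.4% G and C with 6 CpG dinucleotides, against medians of 52.4% and 6 over all 32851 windows of the table. The Hoxd9 window held no match and was 65.2% G and C with 13 CpG, and the Hoxb4 window held AGGTCA on the minus strand 81 bases before the start. The table had 21 windows for 19 Hox genes, of which 1 held CTTTGAT, 5 AGGTCA, 2 TGATTNAT and 2 TATAAA. Over all windows the shares were 3.21% for CTTTGAT, 14.0% for AGGTCA, 2.83% for TGATTNAT and 12.4% for TATAAA. A match is a string of letters, and binding was not measured here.

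Hoxd8 was the one member whose group means spread over at least 2 log2 units. It is a central HoxD gene, expressed in the embryo along the trunk. In the normal Lin- arrays of pools F, G and H it read 3.92, 3.70 and 3.85, and in the normal CD29+CD24+ arrays 3.89, 3.91 and 3.49. In the normal CD29hiCD24+ arrays it read 6.41, 4.40 and 4.43, so that pool F, the array with high leukocyte and endothelial means, was the highest normal value.

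In tumours A to E the Lin- arrays read 9.06, 9.33, 6.16, 8.30 and 7.53 for Hoxd8. The CD29+CD24+ arrays read 9.19, 9.11, 4.91, 8.44 and 7.75. The CD29hiCD24+ arrays read 9.42, 9.45, 4.14, 6.68 and 6.49. Tumours A and B were the highest in every gate and tumour C the lowest, and in the Lin- and CD29+CD24+ gates no tumour overlapped a pool. In the CD29hiCD24+ gate tumour C fell below all 3 pools and the other 4 tumours lay above them.

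Hoxd8 was thus higher in tumours by 4.25 ± 1.05 (SE) on the log2 scale in Lin- cells, a 19.1-fold difference (adjusted p = 0.00258, limma over all genes tested). In CD29+CD24+ cells the difference was 4.12 ± 1.05, or 17.4-fold (adjusted p = 0.00300). In CD29hiCD24+ cells it was 2.16 ± 1.05 and did not pass the test (adjusted p = 0.114). Of the fits that left out 1 tumour or pool, only that without tumour C, the lowest tumour, called it. There the difference was 2.93 ± 0.70 (adjusted p = 0.0032, limma). Without the pool F array alone the difference was 2.82 ± 1.19 (adjusted p = 0.0779). On the other probe set, given below, tumours D and E also lay under pool F in this gate, so the miss is not laid on tumour C alone. The change of the difference between the 2 CD24+ gates from normal to tumour did not pass the test either (a change of -1.96 ± 1.49, adjusted p = 0.315). This fit did not pair the gates of a tumour or pool, and Hoxd8 followed the tumour letter across gates. The spread between tumours thus enters the SE of the change, and whether the effects in those 2 gates differ is not decided here.

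A second probe set of Hoxd8 gave smaller differences in the same direction, with overlap in 2 gates. Its tumour Lin- arrays read 7.77, 7.85, 5.64, 6.19 and 5.72 in A to E, against 4.24, 4.17 and 4.06 in pools F to H, without overlap. Its CD29+CD24+ arrays read 8.29, 7.25, 3.95, 6.49 and 5.99 in tumours and 3.52, 4.09 and 3.14 in pools, so that tumour C lay under pool G. Its CD29hiCD24+ arrays read 7.98, 8.44, 4.24, 5.23 and 5.61 in tumours and 6.92, 4.15 and 5.33 in pools, where tumours C, D and E lay under pool F. Its difference was 2.47 ± 0.93 in Lin- (adjusted p = 0.0477), 2.81 ± 0.93 in CD29+CD24+ (adjusted p = 0.0223) and 0.83 ± 0.93 in CD29hiCD24+ cells (adjusted p = 0.553, limma). Both probe sets ranked tumours A and B above C, D and E in every gate.

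The array labels carry numbers in 3 ranges, 19 to 24 for tumours A and B, 56 to 64 for C and D, and 82 to 95 for tumour E and all pools. What the numbers record is not given in the sources used here. Within the last range tumour E alone faces the pools. On the probe set used, its Hoxd8 values of 7.53, 7.75 and 6.49 stood above every pool value of their gates. The last, in CD29hiCD24+ cells, did so by little, with pool F at 6.41. On the second probe set tumour E read 5.61 in that gate, under pool F at 6.92. With the range as a block the Hoxd8 difference was 3.78 ± 0.87 in Lin- (adjusted p = 0.00184), 3.64 ± 0.87 in CD29+CD24+ (adjusted p = 0.00225) and 1.68 ± 0.87 in CD29hiCD24+ cells (adjusted p = 0.123, limma).

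**Figure D2:**
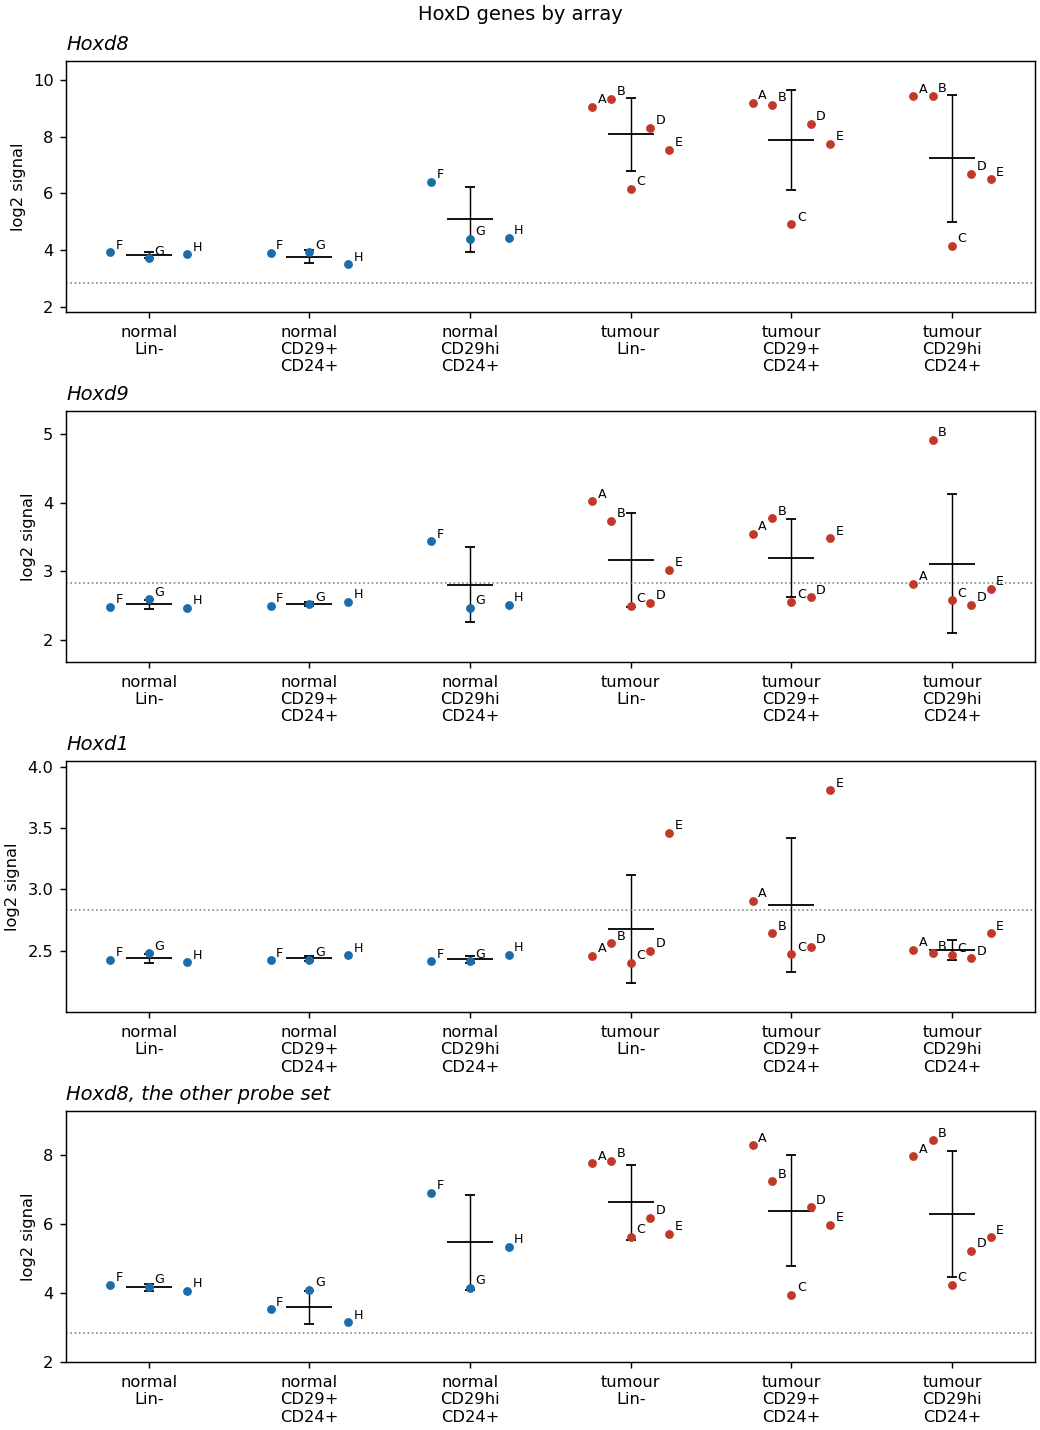
Log2 signal of Hoxd8, Hoxd9, Hoxd1 and the other Hoxd8 probe set on each array, by group; letters name the tumour or pool, black bars give the mean ± SD (n = 3 pools or 5 tumours) and the dotted line is the low-band limit of 2.83. Tumours A and B are the highest and tumour C the lowest for Hoxd8, and Hoxd9 leaves the low band in few arrays.

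The neighbours of Hoxd8 stayed near the low band. Hoxd9, the posterior neighbour on the 5' side of the cluster, passed the limit in 8 arrays. It read 4.02, 3.73, 2.50, 2.54 and 3.02 in tumour Lin- cells of A to E, 3.54, 3.77, 2.55, 2.62 and 3.48 in CD29+CD24+ cells, and 2.82, 4.91, 2.58, 2.51 and 2.74 in CD29hiCD24+ cells. The pools lay between 2.47 and 2.59 except the CD29hiCD24+ array of pool F at 3.43. Tumours A, B and E were thus the high ones in the first 2 gates, and C and D were at the pools' level. The differences of 0.65 ± 0.46 in Lin-, 0.67 ± 0.46 in CD29+CD24+ and 0.31 ± 0.46 in CD29hiCD24+ cells did not pass the test (adjusted p = 0.281, 0.261 and 0.638, limma).

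Hoxd1, the most anterior HoxD gene, passed the limit in 3 arrays, all of tumours. These were the Lin- array of tumour E at 3.46 and the CD29+CD24+ arrays of tumours E and A at 3.81 and 2.91. The pools lay between 2.41 and 2.48 in all gates. Its difference in CD29+CD24+ cells was 0.43 ± 0.23 and did not pass the test (adjusted p = 0.144, limma). The gene was tested only through tumour arrays, with all pools in the low band. The calls it gained in this gate with the number range as a block, with an actin covariate or without tumour E are therefore not read as support for a difference.

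Of the other HoxD members, Hoxd3, Hoxd11 and Hoxd12 never passed the limit, and Hoxd10 and Hoxd13 passed in 1 array each. Of 8 tested genes flanking the cluster, 0 were called higher and 3 lower in CD29hiCD24+ cells, and 1 higher and 3 lower in each of the other 2 gates. Over all genes tested 38.6%, 43.5% and 40.6% were called in CD29hiCD24+, CD29+CD24+ and Lin- cells, so these counts are near that share. The one called higher was Nfe2l2, a regulator of the oxidative stress response, by 1.07 ± 0.20 in CD29+CD24+ (adjusted p = 0.000139) and 0.85 ± 0.20 in Lin- cells (adjusted p = 0.00145, limma), while in CD29hiCD24+ cells it was lower (-0.79 ± 0.20). Agps, an enzyme of ether lipid synthesis, was lower in all 3 gates, with differences of -2.12, -4.78 and -4.75 in CD29hiCD24+, CD29+CD24+ and Lin- cells. Atf2, a bZIP transcription factor, was lower in CD29hiCD24+ cells (-1.06 ± 0.28, adjusted p = 0.00436). Chn1, a Rac GTPase-activating protein, was lower in CD29+CD24+ cells, at 4.99 in pools and under the limit in all 5 tumours, so that pools were at least 4.47-fold higher. It passed the limit in 5 arrays, all of pools, and entered the tests only through them, so no test is given. Here and below, "at least" sets an array under the limit to the limit. Nfe2l2 and Agps were chosen after their values were seen.

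**Figure D3:**
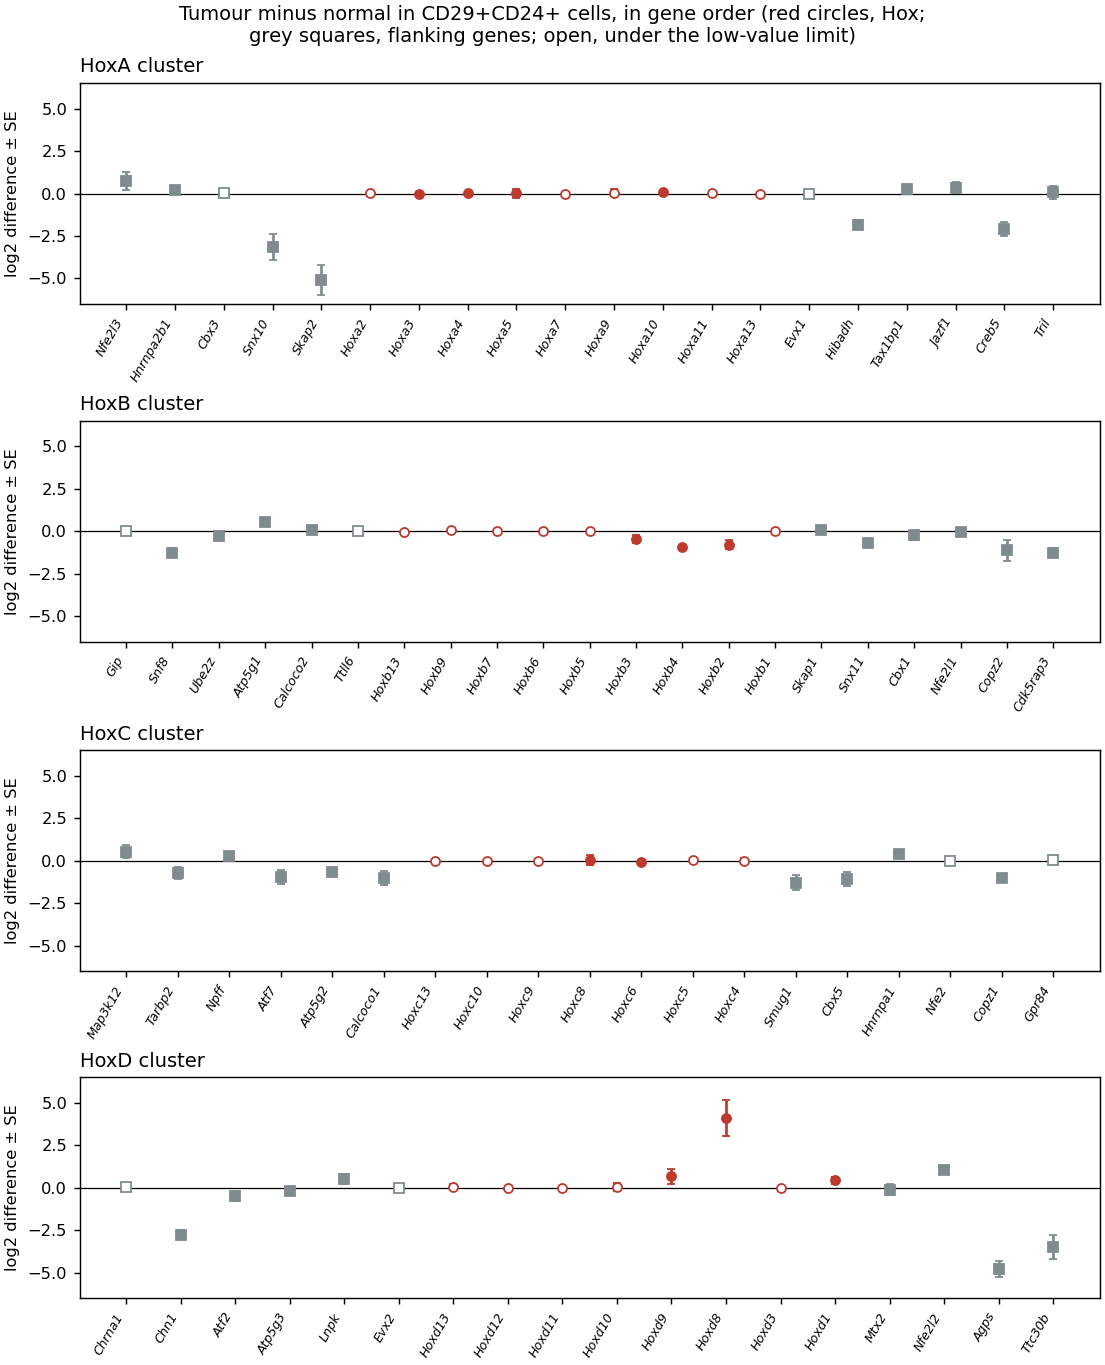
Log2 difference, tumour minus normal, in CD29+CD24+ cells for the genes of each cluster and their neighbours in gene order, from the fit without the low-value filter; red circles are Hox genes, grey squares flanking genes, open symbols genes under the limit, and bars SE. Hoxd8 at 4.12 stands alone above the other Hox genes of its cluster, while Hoxb4 and Hoxb2 lie below 0.

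Hoxb4, the firmest HoxB call, ran the other way. It is an anterior gene known for its effect on blood stem cell expansion, and it was highest in 1 population: normal CD29+CD24+ cells read 4.33, 4.15 and 4.14 in pools F to H. The other 21 arrays lay lower without overlap, at 3.56, 3.41 and 3.75 in normal Lin- cells, 3.34, 3.47 and 3.52 in normal CD29hiCD24+ cells, and 3.16 to 3.60 in tumours. In tumour CD29+CD24+ cells of A to E it read 3.31, 3.19, 3.16, 3.38 and 3.36, a difference from the pools of -0.93 ± 0.09 (adjusted p = 2.63e-08, limma). In the same comparison 12 of 13 luminal genes were lower in tumours, with a median difference of -3.48, and their mean was 7.40 to 10.4 in tumours against 12.0 to 12.1 in pools. Normal Lin- arrays had a luminal mean of 11.5 to 12.0 with Hoxb4 at the lower values above. The part of luminal cells in the Hoxb4 values was not tested.

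Within the normal gland Hoxb4 was lower in CD29hiCD24+ than in CD29+CD24+ cells by 0.77 (-0.77 ± 0.10, adjusted p = 1.93e-06). Within tumours the same gate difference was 0.19 ± 0.08 (adjusted p = 0.171). The change of that gate difference from normal to tumour was 0.95 ± 0.12 and passed in all 18 alternatives. The CD29+CD24+ pools are also the arrays with the lowest basal means and the lowest 3' minus 5' actin signal, 1.61 ± 0.21 (SD, n = 3) against 2.03 to 2.53 in the other 5 groups. With that signal as a covariate the Hoxb4 calls stood. In Lin- cells Hoxb4 was lower in tumours by a smaller amount, -0.22 ± 0.09 (adjusted p = 0.0470), a call that was lost in 15 of 18 alternatives.

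Hoxb2, whose paralogues pattern the hindbrain, showed a like pattern near the limit. It read 2.94, 2.49 and 2.66 in normal CD29+CD24+ cells of pools F to H, and 1.86 to 1.99 in all but 2 of the other arrays. The exceptions were the Lin- array of pool H at 3.18 and the CD29hiCD24+ array of tumour A at 3.24. It was lower in tumour CD29+CD24+ cells, by -0.79 ± 0.26, and in normal CD29hiCD24+ against CD29+CD24+ cells, by -0.73 ± 0.29. Only 3 arrays passed the limit, 1 of them in normal CD29+CD24+ cells, so the gene was tested through the arrays in which it was high. Its calls are therefore not read as support for a difference. The tumour call was also lost without pool F (adjusted p = 0.0942) and with the actin covariate (adjusted p = 0.0756, limma). The normal gate call was lost in 11 of 18 alternatives.

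Hoxb3, an anterior gene active in hindbrain and endothelium, was well above the low band in all arrays. In CD29hiCD24+ cells it read 8.32, 8.22 and 8.42 in pools F to H and 7.77, 7.55, 7.25, 8.05 and 7.54 in tumours A to E, without overlap. In Lin- cells it read 8.18, 7.45 and 8.45 in pools and 7.16, 7.48, 7.25, 7.37 and 7.27 in tumours, with pool G just under tumour B. The differences were -0.69 ± 0.24 (adjusted p = 0.0285) and -0.72 ± 0.24 (adjusted p = 0.0202, limma). The second probe set of Hoxb3 did not bear this out: in CD29hiCD24+ cells it was higher in tumours, 0.72 ± 0.25 (adjusted p = 0.0372), and in Lin- cells its difference was 0.03 ± 0.25. The 2 probe sets of Hoxb3 therefore disagree, and no direction for the gene is drawn from them. The second probe set was also lower in normal CD29hiCD24+ than in normal CD29+CD24+ cells (-1.12 ± 0.28, adjusted p = 0.00324, limma), a difference that the first did not call.

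**Figure D4:**
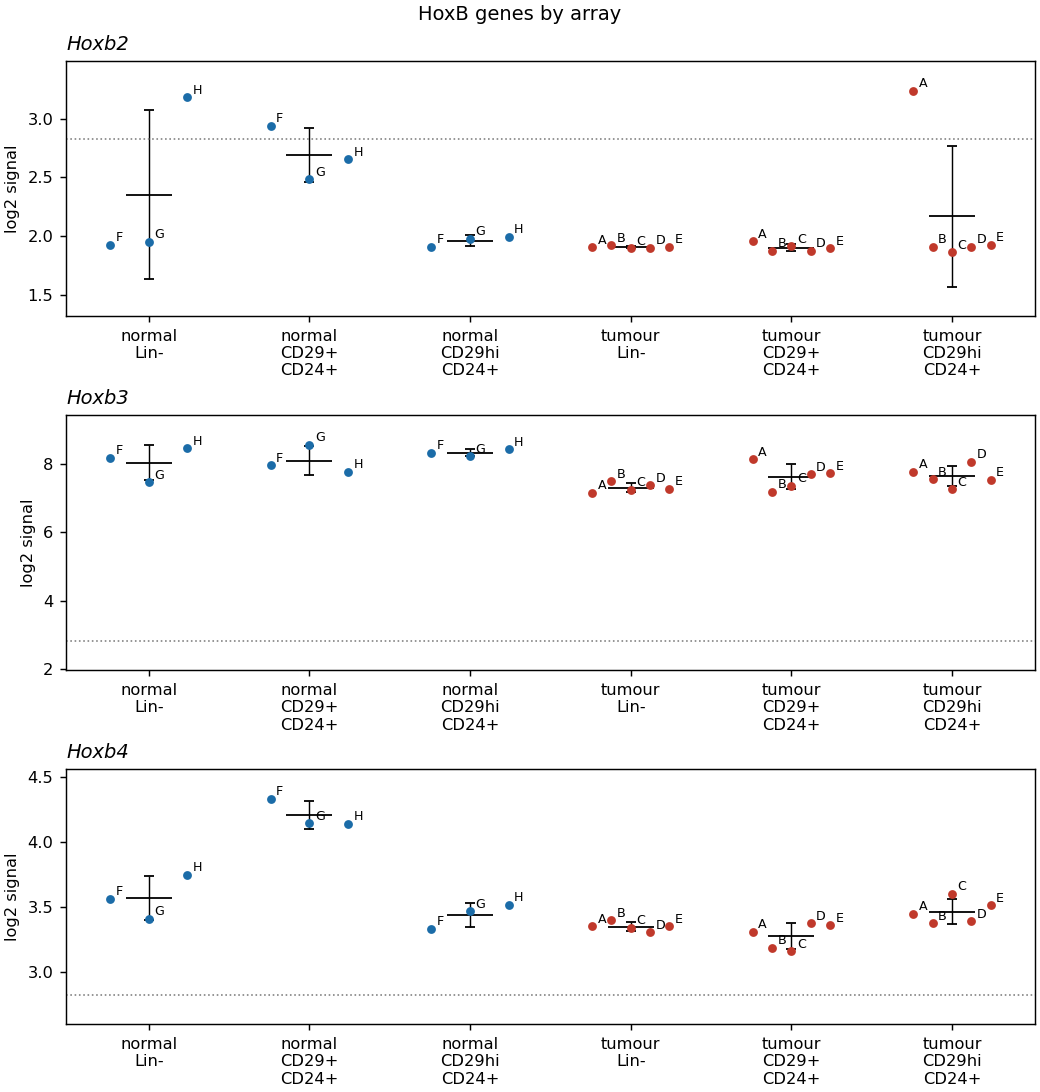
Log2 signal of Hoxb2, Hoxb3 and Hoxb4 on each array, by group; letters name the tumour or pool, black bars give the mean ± SD (n = 3 pools or 5 tumours) and the dotted line is the low-band limit of 2.83. The 3 normal CD29+CD24+ arrays stand above the other groups for Hoxb4, at 4.14 to 4.33.

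The tested HoxA and HoxC members gave small differences. Over Hoxa3, Hoxa4, Hoxa5, Hoxa10, Hoxc6 and Hoxc8 the tumour minus normal difference lay between -0.05 and 0.45 in CD29hiCD24+, between -0.08 and 0.07 in CD29+CD24+ and between -0.05 and 0.12 in Lin- cells, and none passed the test. Hoxa5, a regulator known from lung and mammary development, had the largest of these, 0.45 ± 0.28 in CD29hiCD24+ cells (adjusted p = 0.225). It read 5.39, 5.43 and 5.08 in pools F to H and 5.15, 5.37, 6.31, 5.47 and 6.44 in tumours A to E, so that C, D and E exceeded the pools, D by little. With the number range as a block, Hoxa4, Hoxa5, Hoxa10 and Hoxd1 passed in this gate, at 0.28 ± 0.10, 0.80 ± 0.28, 0.37 ± 0.11 and 0.69 ± 0.16, the last being the gene tested only through tumour arrays.

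That block compares tumour E with the pools, and the CD29hiCD24+ array of tumour E read high for weak probe sets in general. Of the 21 untested members, 8 had their highest value on it. All genes that never passed the limit were shifted there by a median of 0.08, and the untested Hox members by 0.10. The part of this shift in the calls of that block was not tested.

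**Figure D5:**
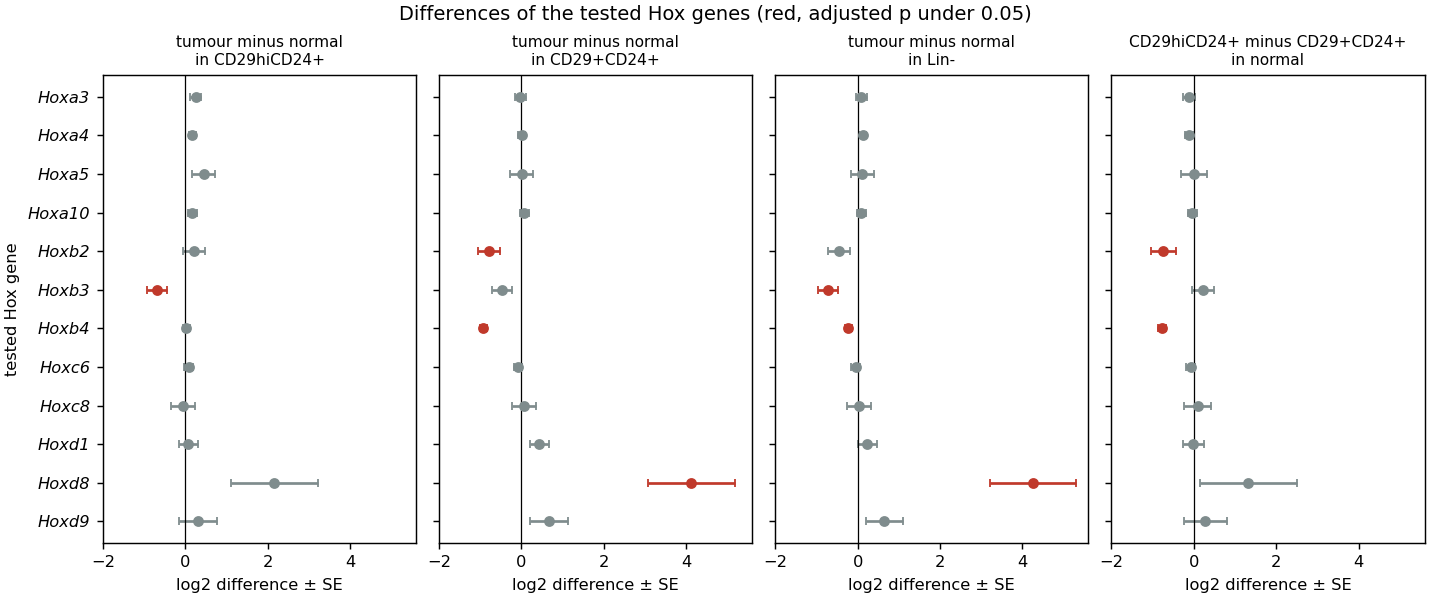
Log2 differences ± SE of the 12 tested Hox genes in 4 comparisons; red points passed an adjusted p of 0.05 and grey points did not. Hoxd8 is the point far to the right in the CD29+CD24+ and Lin- panels, and the red HoxB points lie left of 0, among them Hoxb3, whose 2 probe sets disagree.

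Set against all genes, few Hox members were called. Of the tested members only Hoxa5, Hoxb3 and Hoxd8 averaged well above the limit, at 5.4, 7.8 and 6.4 over all arrays. The next highest was Hoxb4 at 3.51. Genes of like signal were not compared, so the low share is not read as a trait of Hox genes. In CD29hiCD24+ cells 1 of 12 tested members differed between tumour and normal, where 38.6% of 13472 genes did. That member was Hoxb3, lower on the probe set used (22.9% of all genes were lower, 15.6% higher). With its other probe set the count was 1 higher and 0 lower, and without Hoxb3 it was 0 of 11. In CD29+CD24+ cells 3 of 12 differed, against 43.5%: 1 was higher (16.4% of all genes) and 2 were lower (27.1%). Those lower were Hoxb4 and Hoxb2, the latter tested through the arrays in which it was high. In Lin- cells 3 of 12 differed, against 40.6%: 1 was higher (14.0%) and 2 were lower (26.6%). The 2 were Hoxb3 and Hoxb4, and with the other probe set of Hoxb3 the count lower was 1. Between the 2 CD24+ gates of the normal gland 2 of 12 differed, against 46.6%, both lower in CD29hiCD24+ cells (25.3%), and 3 with the other probe set of Hoxb3. The change of that gate difference was called in 2 of 12, against 42.0%, both higher (22.2%), and 3 with that probe set. Hoxb2 was again 1 of the 2 in both of these comparisons. Between the same gates in tumours 0 of 12 were called by limma, against 4.19%, and 1 (Hoxb4) had an unadjusted p under 0.05. Between CD29hiCD24+ and Lin- cells 0 of 12 were called in normal glands and in tumours, against 40.2% and 8.37%, and 0 had an unadjusted p under 0.05.

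Without the filter all 33 members could be counted. Then 2 were called in CD29hiCD24+, 3 in CD29+CD24+ and 2 in Lin- cells between tumour and normal, against 29.2%, 31.1% and 28.9% of 18193 genes. The added member was Hoxc9, lower in tumours by 0.12 (-0.12 ± 0.04, adjusted p = 0.0349, limma) at values between 1.65 and 1.91, far inside the low band. The median difference of the 12 tested members was 0.17, 0.01 and 0.09 in the 3 gates, against -0.01, -0.01 and -0.08 over all genes tested.

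The cofactors of Hox proteins were measurable, and were called about as often as genes in general. Of 8 tested TALE genes, 0 were higher and 3 lower in tumour CD29hiCD24+ cells (38.6% of all genes were called there), 1 higher and 3 lower in CD29+CD24+ cells (43.5%), and 1 higher and 2 lower in Lin- cells (40.6%). Pbx3, a partner of Hox proteins on DNA, was higher by 3.47 ± 0.26 in CD29+CD24+ cells (adjusted p = 8.53e-10) and by 2.16 ± 0.26 in Lin- cells (adjusted p = 1.2e-06, limma). In CD29hiCD24+ cells Pbx3 overlapped, at 9.82 to 10.7 in pools and 9.98 to 10.6 in tumours. Pbxip1, which binds Pbx proteins and keeps them from DNA, was lower in all 3 gates, with differences of -5.75, -4.60 and -4.29. Meis1, another partner, was lower in CD29+CD24+ cells (-1.36 ± 0.35, adjusted p = 0.00304, limma). In CD29hiCD24+ cells Meis1 lay the other way, at 6.69 to 7.60 in tumours and 5.97 to 6.66 in pools, and was not called.

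Several retinoic acid genes rose in tumours. Of 14 tested, 8 were higher and 0 lower in CD29hiCD24+ cells, where 15.6% of all genes were higher and 22.9% lower. In CD29+CD24+ cells 5 were higher and 1 lower (16.4% and 27.1% of all genes), and in Lin- cells 5 and 0 (14.0% and 26.6%). Their median difference was 1.13, 0.25 and 0.37, against -0.01, -0.01 and -0.08 over all genes. Stra6, the receptor that takes up retinol, was at least 97.3-fold higher in tumour CD29hiCD24+ cells, with a tumour mean of 9.43 and all 3 pools under the limit (adjusted p = 1.3e-08, limma). In CD29+CD24+ cells it was higher by 5.48 and in Lin- cells, where 1 of 3 pools passed the limit, it averaged 9.001 in tumours and 2.71 in pools. Crabp2, which carries retinoic acid to its receptor, was higher by 2.92, 4.42 and 4.82. Cyp26a1, which breaks retinoic acid down, was at least 29.7-fold higher in CD29hiCD24+ cells, with a tumour mean of 7.72 and all 3 pools under the limit. In CD29+CD24+ and Lin- cells it was at least 5.93-fold and 6.46-fold higher. Only 1 normal array passed the limit for Cyp26a1, the CD29+CD24+ array of pool H at 3.08. The gene was thus tested through tumour arrays, and no test is given. Aldh1a1, which makes retinoic acid, averaged 11.2 in tumour CD29+CD24+ cells (adjusted p = 7.83e-10, limma). Its pools there read 2.79, 2.83 and 2.65, at or under the limit, so that only a lower bound of 337.0-fold can be given. In the other gates all pools passed the limit and the difference was smaller. It was 3.9-fold in CD29hiCD24+ cells (9.47 against 7.505) and 14.1-fold in Lin- cells (11.118 against 7.305).

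The chromatin regulators were mixed. Of 29 tested Polycomb genes, 2 were higher and 11 lower in tumour CD29hiCD24+ cells, 5 and 5 in CD29+CD24+, and 3 and 6 in Lin- cells, against 38.6%, 43.5% and 40.6% of all genes called in the 3 gates. Jarid2, a cofactor of Polycomb repressive complex 2, was higher by 1.55 ± 0.45 and 2.20 ± 0.45 in the 2 CD24+ gates (adjusted p = 0.0094 and 0.000438). Phc3, a subunit of Polycomb repressive complex 1, was lower in all 3 gates (-1.13, -2.20 and -2.47). Of 21 tested trithorax, MLL and H3K27 demethylase genes, 1 was higher and 7 lower, 4 and 7, and 3 and 7 in the same order of gates. Kdm6b, which removes the Polycomb mark H3K27me3, was higher by 2.09 ± 0.35 in CD29+CD24+ cells (adjusted p = 4.61e-05), and Kmt2c, an H3K4 methyltransferase, was lower in CD29hiCD24+ cells (-1.60 ± 0.24, adjusted p = 1.92e-05, limma).

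The upstream Cdx genes were not measurable: of Cdx1, Cdx2, Cdx4 and geminin, only geminin (Gmnn), which restrains both replication licensing and Hox activity, was tested, and it was higher by 3.61, 2.30 and 1.32. The 14 tested proliferation genes moved with it, 14, 9 and 9 of them being higher in the 3 gates, and the part of proliferation in the geminin values was not tested. Of the 35 listed homeobox genes outside the clusters, 9 could be tested. Dlx5, an ectodermal homeobox gene, was higher in all 3 gates (adjusted p = 0.026, 0.0472 and 0.000913, limma), with tumour means of 4.602, 4.67 and 5.40 and pool means of 2.50, 2.84 and 2.08. Of the pools 1, 2 and 0 of 3 passed the limit, and in Lin- cells the difference was at least 5.93-fold. Msx2, a Dlx relative active in the mammary bud, was higher by 2.26 in CD29hiCD24+ cells and lower in CD29+CD24+ and Lin- cells (-1.82 and -1.38).

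Flanking genes of the other clusters were also called. Of 9 tested genes flanking HoxA, 1 was higher and 5 lower in CD29hiCD24+ cells, and 0 and 4 in each of the other 2 gates. Skap2, an adaptor protein of immune signalling, was lower in tumours in all 3 gates (-2.79, -5.09 and -4.26), where no HoxA member was called. The one called higher was Nfe2l3, a bZIP transcription factor, by 4.43 ± 0.52 (adjusted p = 1.1e-06, limma), which was chosen after its values were seen. Of 10 tested genes flanking HoxB, 1 was higher and 1 lower in CD29hiCD24+, 1 and 3 in CD29+CD24+, and 1 and 2 in Lin- cells. Of 10 flanking HoxC, 3 were higher and 1 lower, 0 and 4, and 0 and 4 in the same order. Over all 4 clusters 15, 16 and 15 of 37 flanking genes were called in CD29hiCD24+, CD29+CD24+ and Lin- cells, against 38.6%, 43.5% and 40.6% of all genes.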

How the data were processed

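RNA of 10000 sorted cells was labelled in a 2-cycle protocol and hybridised to Affymetrix arrays, per the labels' protocols. The deposited values are log2 signals per probe set; RMA, GCRMA and Partek are named in the submitters' processing notes, with role, order and version not given in the sources used here. Array medians were 3.26 to 3.41. Probe sets were named through the platform annotation: 34945 of 45101 carried 1 gene symbol, 932 several and 9160 none. Groups came from the labels; 2 arrays without a letter were set to pool H by elimination. The highest-mean probe set stood for each gene. Genes with over 2.83 in at least 3 arrays (13472 of 18193) were fitted with limma 3.58.1 in R 4.3.3, with 6 group means, eBayes with a trend and Benjamini-Hochberg adjustment over all genes tested; a call is an adjusted p under 0.05. The fit was run on simulated data with independent noise on each array. That simulation does not cover the correlation between arrays of the same tumour or pool. The number of arrays limits the precision.

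All members may be named; of every other list the called genes with the largest differences, at most 3 a list and comparison, were eligible. Outside that rule, Nfe2l2, Nfe2l3 and Agps were chosen after their values were seen. The members and lists were chosen with earlier results of these data known. Letters pair arrays of the same tumour or pool: deviations from group means had a median correlation of 0.578 over 15 same-letter tumour pairs, against -0.179 over 90 other pairs, and 0.142 over 9 pool pairs, against -0.12 over 27. Arrays from the same tumour are not independent across gates. Upstream windows came from RefSeq (GRCm38.p6); 33 of 33 member symbols matched its gene table. Alternatives covered the filter, scaling, blocks, the fitted groups, the probe set rule, an actin covariate, the variance trend and leaving out each tumour or pool; the other probe sets of Hoxd8 and Hoxb3 were added after seeing the data.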

Additional observations from a re-analysis of the deposited data

Results flagged for a closer look

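In 8 of 33 groups of 5 tumour arrays that were looked at, 1 array lay far from the other 4. The tumour groups with an array above the limit also number 33, so the groups were probably picked for a high array. No rate expected by chance is therefore given. In CD29hiCD24+ cells the outlying values were Hoxa9 at 4.02, Hoxd9 at 4.91 and Hoxd13 at 3.72, all in tumour B. Others were Hoxa10 at 3.50 in tumour E and Hoxb2 at 3.24 in tumour A. In Lin- cells they were Hoxc8 at 4.62 in tumour A, Hoxd1 at 3.46 in tumour E and Hoxd10 at 4.12 in tumour C. The 3 posterior genes that stood out in tumour B did so on the same array.

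Between normal glands and tumours the difference of CD29hiCD24+ from CD29+CD24+ cells changed, as the fitted interaction in limma. The change was 1.001 ± 0.37 for Hoxb2 and 0.95 ± 0.12 for Hoxb4 (adjusted p = 4.63e-06, limma). The Hoxb2 call was lost in 5 of 18 alternatives, with differences of 0.61 to 1.11. It rests on a gene with 3 arrays over the limit and is not read as support for a difference. The Hoxb4 call held in all 18, and rests on 1 probe set that the other did not bear out.

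Probe sets that did not stand for their gene held 3 signals above the normal arrays. A probe set of Hoxc5 read 6.03 in CD29hiCD24+ cells of tumour E and at most 2.33 in normal arrays, while the other 2 probe sets of Hoxc5 stayed low there. A probe set of the antisense gene Hoxd3os1 read 4.09 and 4.06 in Lin- cells of tumours A and D. The second probe set of Hoxd8 reached 8.44 in CD29hiCD24+ cells of tumour B.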

How the results depend on the processing

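Hoxd8 stayed called higher in tumour CD29+CD24+ and Lin- cells under all 19 alternatives, with differences of 2.81 to 4.86 and 2.47 to 4.73. Hoxb4 stayed called in CD29+CD24+ cells, in the normal gate comparison and in the change of it under all 18. The 18 did not include its other probe set fitted alone, which stayed under the limit. For both genes 1 of the alternatives, the number-range block, sets only tumour E against the pools within a range. Its tumour comparisons do not measure the spread over the 5 tumours. For Hoxb3 in CD29hiCD24+ cells the direction turned with the mean of all probe sets (0.015) and with the other probe set (0.715), and in Lin- cells with the other probe set (0.025), since the 2 probe sets differ.

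The counts of called Hox genes are small, and single genes move them. In CD29hiCD24+ cells the count higher in tumours was 0, and 1 with median centring (Hoxa4), 4 with the number range as a block, and 0 to 1 leaving out each tumour or pool. The count lower was 1, and 2 without the filter, 0 with quantile normalization, the number-range block or the mean of probe sets, and 0 to 1 with arrays left out. In CD29+CD24+ cells the count higher was 1, and 2 with the number-range block or the actin covariate, and 1 to 2 with arrays left out. The count lower there was 2, and 3 with the mean of probe sets (Hoxb3 added), 1 with the actin covariate, and 1 to 2 with arrays left out. In Lin- cells the count higher was 1, and 3 with the number-range block. The count lower was 2, and 1 without the filter, with median centring, with the tumour or pool letter as a replicate block or without the variance trend. It was 0 with quantile normalization, the number-range block, only the compared groups fitted or the mean of probe sets, and 0 to 2 with arrays left out. In the normal gate comparison the count lower was 2, and 3 with the mean of probe sets (Hoxb3 added). It was 1 without the filter, with the actin covariate or without the trend, and 1 to 2 with arrays left out. In the tumour gate comparison the number-range block called 1 gene lower (Hoxd1, which could be tested only through tumour arrays). For the change of the gate difference the count was 2, and 3 with median centring (Hoxa4 added), 1 with the actin covariate, and 1 to 2 with arrays left out. The replicate block, with a fitted correlation of 0.321, changed no other count of Hox genes by over 1.5 times. The causes of these changes were not tested.

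Quantile normalization moved the share of higher calls among all called genes from 40.5% to 52.1% in CD29hiCD24+ and from 34.4% to 45.9% in Lin- cells between tumour and normal, and from 44.7% to 55.9% between CD29hiCD24+ and Lin- cells of tumours. Median centring put the median of all genes in the change of the gate difference at 0.127, from 0.038. Low-band values have little order, which limits what can be said of the 21 untested members.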

Other observations

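The antisense gene Hoxb5os, transcribed in the HoxB cluster, read 3.12, 3.84 and 3.28 in normal CD29hiCD24+ cells of pools F to H on its probe set. In tumour CD29hiCD24+ cells it read 2.57 to 2.77, under the limit, and in normal CD29+CD24+ cells 2.80, 2.74 and 2.605, also under it. It passed the limit in 5 of 24 arrays, 3 of them these pools, and entered the tests only through arrays where it was high, so no test is given. The gene was picked after its values were seen. Whether the array separates its strand from that of the overlapping genes was not tested.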
